A study of Mus musculus with 15 samples.

Results

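The 8 genes of calcium reabsorption in the distal tubule considered here were followed in the kidney of mice at 3, 12 and 24 months of age. They were chosen by name as the parts of one transport route, namely the entry channel Trpv5, the calcium-binding proteins Calb1 and S100g, the exchanger Slc8a1, the calcium pumps Atp2b1 and Atp2b4, and the receptors Casr and Pth1r. The choice was made with earlier results of these data known. The value of a gene was the sum of the FPKM (fragments per kilobase of transcript per 1000000 mapped fragments) of its annotated transcripts and of assembled transcripts that share splice sites or exons with them. All 8 were found among 33058 genes, and they hold 54 of the 129029 listed transcripts, of which 31 are annotated and 23 were assembled from the reads.

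Along the distal convoluted and connecting tubule, calcium enters the cell from the urine through the channel TRPV5, is carried across the cell by calbindin-D28k (Calb1) and calbindin-D9k (S100g), and leaves on the blood side through the sodium-calcium exchanger NCX1 (Slc8a1) and the plasma membrane pumps PMCA1 (Atp2b1) and PMCA4 (Atp2b4). Parathyroid hormone acts through the receptor encoded by Pth1r, which raises calcium reabsorption here and acts in the proximal tubule as well. The calcium-sensing receptor encoded by Casr reads calcium outside the cell and is known mainly from the thick ascending limb. Vitamin D, parathyroid hormone and klotho are the classical regulators of this route.

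The study used kidneys of male C57BL/6 mice (C57BL/6J in the paper) on standard chow without any treatment or genetic change, 5 mice at each of the 3 ages, with one library per mouse. Mice are called here by the numbers of their labels, which are 5 to 9 at 3 months, 17 to 21 at 12 months and 31 to 35 at 24 months. Groups follow the age given for each sample, although the titles of all 15 begin alike with 3MK, and the paper describes 3- and 24-month-old mice but does not mention 12-month-old ones. The labels describe removal of ribosomal RNA, whereas the paper's methods describe selection on oligo(dT) beads. Aligned bases ranged from 5.03 to 6.13 Gb at 3 months, from 5.84 to 8.03 Gb at 12 months and from 6.07 to 7.33 Gb at 24 months, and each library had a median correlation of 0.906 to 0.920 with the other 14. Mean read coverage of Trpv5 was between 19.8 and 35.5 reads per base and that of Atp2b4 between 16.1 and 38.6, the lowest of the 8 genes. S100g had between 530 and 1970 reads per base. Age differences of genes were tested with limma on log2(FPKM + 1) over all genes, 2 ages at a time, and a gene was called at a Benjamini-Hochberg adjusted p under 0.05. Fold changes are on that log2 scale, which understates the change of low genes.

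The tissue label was checked against marker genes. The 6 markers of the distal convoluted tubule, such as the thiazide-sensitive cotransporter Slc12a3, summed to between 381 and 554 FPKM over the 15 mice, and the 6 markers of the proximal tubule to between 1480 and 2020 FPKM. Markers of fat, adrenal gland and liver summed to at most 11 FPKM. In whole kidney, fewer cells of a type and less RNA per cell cannot be told apart, and for Casr, Pth1r and the pumps other nephron segments add to the value.

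S100g was the most abundant member, at a mean of 179 FPKM over the 15 mice, which put it above 99.6% of all genes. Pth1r followed at 89.0 FPKM and Calb1 at 30.2 FPKM. Slc8a1 (18.5 FPKM), Atp2b1 (13.5 FPKM) and Casr (12.9 FPKM) lay close together, and their ranges over the mice overlapped. Atp2b4 at 4.69 FPKM and Trpv5 at 4.17 FPKM were the lowest, again with overlapping ranges. The spread between mice of one age was wide for Calb1 at every age, with a coefficient of variation of 46.7% at 3 months, 35.8% at 12 months and 43.8% at 24 months, and S100g reached 48.2% at 3 months. Trpv5 varied by 9.37%, 22.2% and 8.13% at the 3 ages.

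Besides the linear transcripts, the deposited data list circular RNAs, in which the end of one exon is joined backwards to the start of an earlier one or of itself. In all, 11 of them came from 5 of the 8 genes, with 3 each from Atp2b1, Casr and Slc8a1 and 1 each from Atp2b4 and Pth1r. No circular RNA was listed for Calb1, S100g or Trpv5. The back-splice junctions of the 3 from Slc8a1 are shown because the age differences among circular RNAs described further on concern them, and those of the most abundant circle of Atp2b1, Casr and Pth1r for comparison. Each line gives the last 15 bases of the last exon in lower case and then the first 15 bases of the first exon in capitals, 5′ to 3′ on the strand of the gene, taken from the GENCODE M21 transcripts of GRCm38. The ends of the exons in that annotation coincide with the listed ends of each circle.
Slc8a1 circRNA7631, exons 2 to 9, minus strand, chr17:81408067-81445593: gaacctcggtgccagCAAAACAATATCAGT
Slc8a1 circRNA2513, exons 2 to 8, minus strand, chr17:81428182-81445593: tcactgtcagcgctgCAAAACAATATCAGT
Slc8a1 circRNA1557, exon 9, minus strand, chr17:81408067-81408342: gaacctcggtgccagGGGAAGATGACGATG
Atp2b1 circRNA7607, exons 2 to 9, plus strand, chr10:98968694-98996982: gcttactcagtcaagATGTATACATCTCAA
Casr circRNA5865, exons 2 to 4, minus strand, chr16:36509594-36518028: gttgaggcctggcagAAAACATCTCGGGCA
Pth1r circRNA5658, exons 7 to 9, minus strand, chr9:110726970-110727796: gccgccgttggctacGCCATGCCTACAGAC

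The junctions show that circRNA7631 and circRNA2513 begin with the same exon 2 of Slc8a1, while circRNA7631 and circRNA1557 end with the same exon 9. Exons are counted from the 5′ end of the host transcript, which for Slc8a1 is ENSMUST00000086538. All 3 circles of Slc8a1 lie inside its coding sequence. Their spliced lengths are 737, 461 and 276 bases, so that circRNA7631 shares all of its sequence with the other pair, and all share theirs with the linear mRNA.

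Trpv5 (chromosome 6, 41650654 to 41681159, minus strand, GRCm38), the channel through which calcium enters the distal cell, was the one member that differed between ages at the adjusted threshold. Its level was 5.24, 4.92, 5.37, 6.21 and 5.88 FPKM in the 3-month-old mice 5 to 9. At 12 months, mice 17 to 21 had 3.28, 4.88, 2.78, 3.39 and 4.13 FPKM. At 24 months, mice 31 to 35 had 3.30, 3.73, 3.26, 3.10 and 3.06 FPKM. Every mouse of 12 or 24 months lay below every mouse of 3 months, although mouse 18 at 12 months, at 4.88 FPKM, came close to mouse 6, the lowest young one. The means were 5.52 ± 0.518, 3.69 ± 0.820 and 3.29 ± 0.268 FPKM (SD, n = 5 each).

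From 3 to 24 months Trpv5 fell by 0.60 on the log2 scale (SE 0.08, 95% interval -0.78 to -0.43), with a limma adjusted p of 0.0146 and an exact permutation p of 0.00794, the smallest that 5 against 5 mice can give. The mean FPKM at 24 months was 0.596 times that at 3 months. Of all 31755 genes tested in this comparison, 1.22% were called in either direction and 0.211% were called as lower, and 0.91% had lower levels at 24 months without overlap. Among the 8 members, 1 was called. From 3 to 12 months the difference was -0.49 (SE 0.12), with an unadjusted p of 0.00283, a limma adjusted p of 0.121 and an exact permutation p of 0.00794. No overlap of that kind, with the older mice lower, was seen in 0.667% of the 31637 genes tested. Between 12 and 24 months the difference was -0.11 (95% interval -0.38 to 0.15, limma adjusted p 0.820), and the levels overlapped. The mean at 12 months was 0.669 times that at 3 months.

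**Figure D1:**
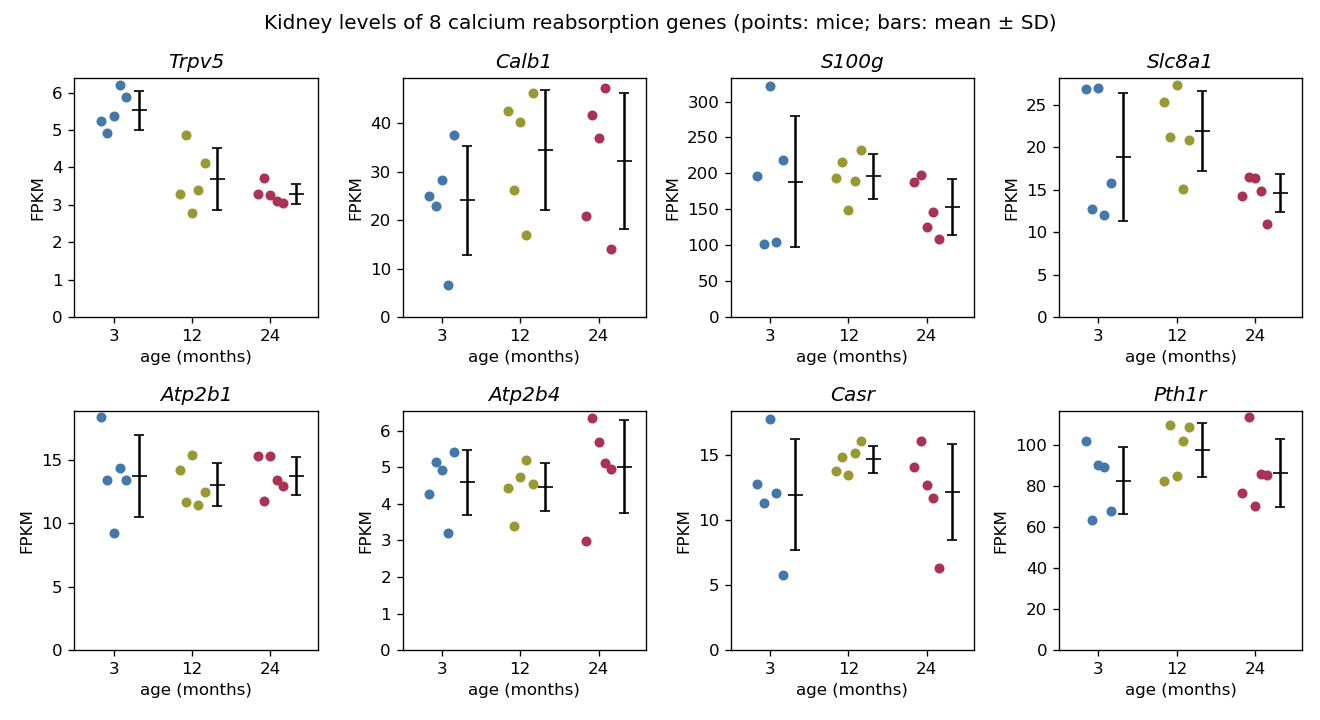
FPKM of the 8 genes (vertical axes, linear from 0) in each mouse (points) at 3, 12 and 24 months of age, with the mean ± SD of 5 mice beside the points. The 3-month-old mice lie between 4.92 and 6.21 FPKM for Trpv5, above all older mice, whereas the points of the ages overlap in the other 7 panels.

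The transcripts of Trpv5 showed where its value is carried. The annotated transcript ENSMUST00000031901, of 15 exons and 3243 bases, held 78.5% of the FPKM of the gene at 3 months, 95.5% at 12 months and 79.8% at 24 months on average. Taken alone it had 4.05, 0.987, 5.37, 6.21 and 5.58 FPKM at 3 months. The low value belongs to mouse 6, in which 3.82 FPKM were assigned to the assembled transcript MSTRG.29921.1, which has 16 exons and 4721 bases and carries the annotated splice sites in part. That transcript was carried by mouse 6 alone, being listed at 0 in 13 mice and at 0.000947 FPKM in mouse 9. The second assembled transcript, MSTRG.29921.2 with 14 exons, had between 0 and 1.38 FPKM.

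On annotated transcripts alone, the difference of Trpv5 between 24 and 3 months was -0.47, with an unadjusted p of 0.193 and a limma adjusted p of 0.598, and between 12 and 3 months -0.15 with an adjusted p of 0.852. The call therefore rested on counting the assembled transcripts of the locus with the annotated one. For the sum over the locus, leaving out any 1 of the 10 mice gave differences between -0.64 and -0.57 with limma adjusted p-values between 0.0135 and 0.0427. The share of the annotated transcript spread from 20.1% to 100% among the young mice, and it did not differ between 24 and 3 months by the exact permutation test (p = 0.968).

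**Figure D2:**
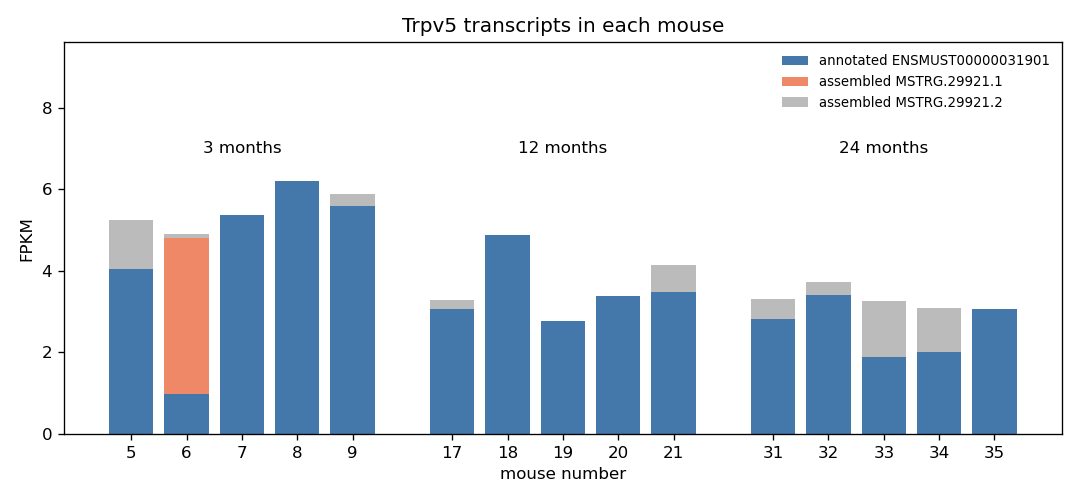
FPKM of the 3 transcripts of Trpv5 (vertical axis, stacked) in each mouse (horizontal axis, mouse number), grouped by age. The total is higher at 3 months, and in mouse 6 most of it, 3.82 FPKM, is assigned to an assembled transcript that no other mouse, young or old, held above 0.000947 FPKM.

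Markers of the distal tubule, of principal cells and of other cell types were measured beside Trpv5. The summed level of the 7 markers of connecting tubule and principal cells, among them the water channel Aqp2, ranged from 101 to 261 FPKM at 3 months, from 86.6 to 118 FPKM at 12 months and from 75.4 to 121 FPKM at 24 months. The 6 markers of the distal convoluted tubule ranged from 396 to 475, from 403 to 506 and from 381 to 554 FPKM. None of either list was called in any comparison, and at 24 against 3 months 6 of the 7 and 3 of the 6 were lower. The 6 immune cell markers, such as Ptprc, summed to between 3.31 and 9.40 FPKM at 3 months, between 7.38 and 15 at 12 months and between 7.09 and 13.3 at 24 months, and 4 of them were higher at 24 than at 3 months at an unadjusted p under 0.05. The 6 markers of intercalated cells summed to between 32.9 and 41.7 FPKM at 3 months, between 21.5 and 30.5 at 12 months and between 23.2 and 29.3 at 24 months, so that the older mice lay below all young ones here too. The 6 smooth muscle and stromal markers summed to between 29.5 and 44.3 FPKM at 3 months, between 40.8 and 51.2 at 12 months and between 37.2 and 56.0 at 24 months, with 5 of the 6 higher at 24 than at 3 months, 2 of them at an unadjusted p under 0.05, and 6 of 6 higher at 12 than at 3 months, 3 of them at such a p. Of all genes, 14.9% at 24 against 3 months and 14.3% at 12 against 3 months had an unadjusted p under 0.05 in either direction. The part of immune, intercalated, smooth muscle and stromal cells in the Trpv5 values was not tested.

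Trpv5 was also taken relative to the mean log2(FPKM + 1) of the 13 markers of distal convoluted tubule, connecting tubule and principal cells. It lay between -1.75 and -1.37 at 3 months, between -2.13 and -1.41 at 12 months and between -2.09 and -1.83 at 24 months. No 24-month-old mouse reached the lowest 3-month-old one on this scale, and the difference of -0.41 had an exact permutation p of 0.00794. At 12 against 3 months the relative difference was -0.29, the groups overlapped and the exact permutation p was 0.0873. The mean of the markers itself differed by -0.20 in both comparisons, with exact permutation p-values of 0.0794 at 24 months and 0.0238 at 12 months. Trpv5 was thus lower at 24 months relative to the mean of these markers as well, whereas at 12 months the relative difference was within the spread between mice. The markers did not move alike at 24 against 3 months. Hsd11b2 (-1.0, limma adjusted p 0.301) and Aqp2 (-0.92, limma adjusted p 0.336) fell by more than Trpv5 (-0.6), and the other markers by less or not at all. The median difference was -0.27 in the connecting tubule and principal cell list and -0.03 in the distal convoluted tubule list. Trpv5 relative to single markers was not tested. Of the 24 such relative differences computed for the 8 members, 3 had an exact p under 0.05, the others being Slc8a1 at 24 against 12 months (-0.55, exact permutation p 0.0317) and Casr at 12 against 3 months (0.55, exact permutation p 0.0476).

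The calcium-binding proteins that carry calcium through the cell were Calb1 and S100g. Calb1 (chromosome 4, 15881264 to 15908064, plus strand) had 25.0, 22.9, 28.3, 6.63 and 37.5 FPKM at 3 months. It had 42.6, 26.3, 40.2, 17 and 46.2 FPKM at 12 months and 20.9, 41.6, 37.0, 47.2 and 14.1 FPKM at 24 months. Single mice of each age were low, namely mouse 8, mouse 20 and mouse 35, and the ages overlapped throughout. The means of 24.1 ± 11.2, 34.5 ± 12.3 and 32.2 ± 14.1 FPKM (SD, n = 5 each) differed by 0.45 on the log2 scale between 24 and 3 months, with a 95% interval from -0.60 to 1.51 (limma adjusted p 0.676). Without mouse 8, the low young mouse, this difference was 0.07, and without mouse 35, the low old one, it was 0.71.

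S100g (chromosome X, 162961992 to 162964647, minus strand) ranged from 102 to 321 FPKM at 3 months with a median of 196, from 149 to 232 at 12 months and from 108 to 198 at 24 months. The highest and the lowest mouse of the series were both 3 months old. Its difference was -0.20 between 24 and 3 months (95% interval -0.94 to 0.55) and -0.37 between 24 and 12 months (95% interval -0.80 to 0.05, unadjusted p 0.0784). Neither passed the test, with limma adjusted p-values of 0.797 and 0.807. For both calbindin genes the interval at 24 against 3 months reached down to the -0.60 measured for Trpv5, as it did for Slc8a1 and Casr. That holds on the scale of log2(FPKM + 1), which understates the change of the lower Trpv5, whose ratio of means was 0.596.

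Export on the blood side runs through the exchanger Slc8a1 and the pumps. Slc8a1 (chromosome 17, 81372669 to 81671713, minus strand) had 26.9, 12.7, 27.0, 12.0 and 15.8 FPKM at 3 months, 25.3, 21.2, 27.3, 15.1 and 20.9 FPKM at 12 months, and 14.3, 16.5, 16.4, 14.9 and 11 FPKM at 24 months. The young mice formed a high pair, mice 5 and 7, and 3 lower mice, and the old mice reached at most 16.5 FPKM. Between 24 and 12 months the difference was -0.54 (SE 0.16, 95% interval -0.90 to -0.18), with an unadjusted p of 0.00778, a limma adjusted p of 0.680 and an exact permutation p of 0.0238. The mean at 24 months was 0.666 times that at 12 months, and only mouse 20 of the 12-month-old mice overlapped with the old ones. The sum includes long assembled transcripts that span intronic sequence, which are described further on with the isoforms. Slc8a1 was the 1 member of 8 at an unadjusted p under 0.05 in this comparison, where limma called no member and 0.0031% of the 32282 genes, while 6.43% of all genes had an unadjusted p under 0.05. Against 3 months the difference at 24 months was -0.28 (95% interval -0.82 to 0.26, limma adjusted p 0.662).

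Neither of the pumps Atp2b1 and Atp2b4 passed the test in any comparison. Atp2b1 (chromosome 10, 98914406 to 99029996, plus strand) ranged from 9.28 to 18.4 FPKM at 3 months, from 11.5 to 15.4 at 12 months and from 11.8 to 15.3 at 24 months. Its difference between 24 and 3 months was 0.02 (95% interval -0.32 to 0.36). Atp2b4 (chromosome 1, 133699388 to 133801063, minus strand) ranged from 3.19 to 5.43, from 3.39 to 5.19 and from 2.98 to 6.36 FPKM, with a difference of 0.09 (95% interval -0.31 to 0.49). For both pumps the limma adjusted p lay between 0.825 and 0.963 over the 3 comparisons, and dividing by median-of-ratios scaling factors turned the differences between 24 and 3 months to the other sign.

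The receptors Casr and Pth1r had their highest mean at 12 months without passing the test. Casr (chromosome 16, 36490096 to 36562141, minus strand) had 12.8, 11.3, 17.8, 12.1 and 5.82 FPKM at 3 months, 13.8, 14.9, 13.5, 15.2 and 16.1 FPKM at 12 months, and 14.1, 16.1, 12.7, 11.7 and 6.31 FPKM at 24 months. The 12-month-old mice lay close together, with a coefficient of variation of 7.40%, whereas mouse 9 of the young and mouse 35 of the old mice were low. Pth1r (chromosome 9, 110722085 to 110748583, minus strand) ranged from 63.7 to 102 FPKM at 3 months, from 82.3 to 110 at 12 months and from 70.2 to 114 at 24 months. At 12 against 3 months the differences were 0.35 for Casr (95% interval -0.16 to 0.85) and 0.25 for Pth1r (95% interval -0.09 to 0.59), with limma adjusted p-values of 0.526 and 0.501. At 24 against 3 months they were 0.04 (95% interval -0.62 to 0.70) and 0.07 (95% interval -0.31 to 0.44), and both took the other sign with median-of-ratios scaling.

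At 12 against 3 months, limma called no member and 0.25% of all genes, and 1 member, Trpv5, had an unadjusted p under 0.05, as did 14.3% of all genes. At 24 against 3 months the 7 members other than Trpv5 had limma adjusted p-values between 0.662 and 0.963, and Trpv5 was the 1 member with an unadjusted p under 0.05, against 14.9% of all genes. The median difference of the 8 members was 0.03 at 24 against 3 months, beside 0.02 over all genes, 0.21 at 12 against 3 months beside 0.02, and -0.16 at 24 against 12 months beside -0.001. Of the 386 genes called at 24 against 3 months, 319 were higher, and with median-of-ratios scaling 187 of 320 were higher. The same scaling changed the split at 12 against 3 months from 62 higher of 79 to 34 of 67. Trpv5 fell at 24 against 3 months under both scalings.

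**Figure D3:**
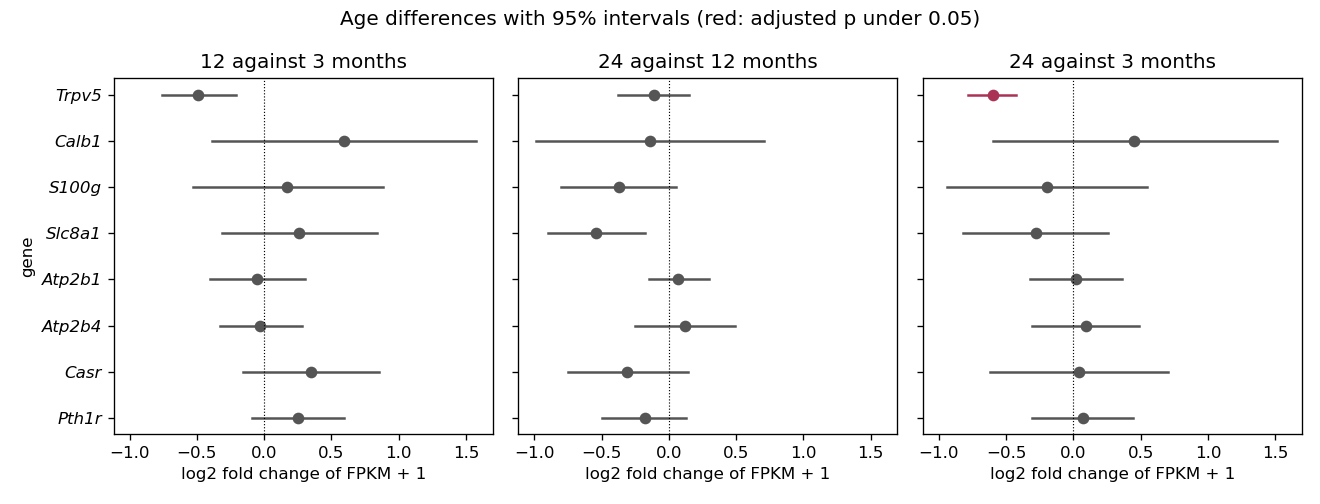
Log2 fold change of FPKM + 1 (horizontal axes, with 95% intervals from limma) of the 8 genes in the 3 comparisons of ages, with 5 mice per age. The interval of Trpv5 at 24 against 3 months, from -0.78 to -0.43, is the one drawn in red as called, and the intervals of Calb1 are the widest.

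The isoforms of the other members were compared as well. Of the member transcripts, 53 could be tested at 24 against 3 months, 54 at 12 against 3 months and 52 at 24 against 12 months. Limma called none, and 1, 2 and 5 of them had an unadjusted p under 0.05, all of which are named in what follows. Among all transcripts, 0.0192%, 0.00481% and 0.00559% were called and 7.9%, 7.46% and 4.47% had an unadjusted p under 0.05 in the same order of comparisons. Transcripts of one gene are not measured independently, since StringTie divides the reads of shared exons between them.

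Calb1 was carried by ENSMUST00000029876, of 11 exons and 4222 bases, with 23.4, 34 and 31.2 FPKM on average at 3, 12 and 24 months. The share of this transcript was between 98.4% and 98.6% in the 12-month-old mice and between 94.0% and 97.6% in the 24-month-old mice, without overlap (exact permutation p 0.00794). The remaining transcripts, ENSMUST00000136266 and ENSMUST00000141336, are annotated as retained introns in GENCODE M21. On average ENSMUST00000136266 had 0.185 FPKM at 12 months and 0.18 FPKM at 24 months. ENSMUST00000141336, of 3 exons and 736 bases, had 0.327 ± 0.123 FPKM at 12 months and 0.768 ± 0.198 FPKM at 24 months (SD, n = 5), a difference of 0.41 with a limma adjusted p of 0.838. At 24 against 3 months its difference was 0.35 (limma adjusted p 0.624). Of the shares of the most abundant transcript of each of the 8 members, this was the 1 with an exact p under 0.05 at 24 against 12 months, and none had one in the other comparisons.

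S100g was split between the annotated ENSMUST00000038769, at 133, 143 and 109 FPKM at the 3 ages, and the assembled MSTRG.40261.2, at 55.6, 52.5 and 44.6 FPKM. Each has 3 exons, and they are 480 and 525 bases long. Casr was carried almost wholly by the assembled MSTRG.14078.1, which has 7 exons and 10264 bases and held 94.7%, 96.0% and 92.9% of its FPKM. For Pth1r, 4 transcripts shared most of the value, namely ENSMUST00000198865 with a mean of 20.5 FPKM, MSTRG.38873.5 with 21.8, ENSMUST00000006005 with 21.1 and MSTRG.38873.6 with 13.8. The assembled MSTRG.38873.1 was listed at 0 in 4 mice of 3 months, 2 of 12 months and 4 of 24 months, with 14.3 FPKM in mouse 34, and its mean at 12 months was 8.48 ± 7.76 FPKM (SD, n = 5). It differed by 2.35 between 12 and 3 months (limma adjusted p 0.622), and the low ENSMUST00000199791 differed by 0.51 between 12 and 3 months (limma adjusted p 0.630) and by -0.48 between 24 and 12 months (limma adjusted p 0.838). The remaining Pth1r transcripts with a mean of at least 1 FPKM were ENSMUST00000199862, MSTRG.38873.7 and MSTRG.38873.8, at 3.34, 2.14 and 1.02 FPKM.

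Slc8a1 had no transcript with an exact annotated match, so that its value rests on 8 assembled ones. The most abundant, MSTRG.16210.11, is 70335 bases long in 4 exons and had 6.11 ± 3.00, 7.92 ± 0.422 and 4.02 ± 2.62 FPKM at 3, 12 and 24 months (SD, n = 5 each). It differed by -1.12 between 24 and 12 months (limma adjusted p 0.838) and was listed at 0 in 1 of the 24-month-old mice. Next came MSTRG.16210.6, of 11 exons and 3192 bases, with 4.89, 5.29 and 4.34 FPKM, and then MSTRG.16210.3, MSTRG.16210.4 and MSTRG.16210.10 with means of 3.52, 1.22 and 1.13 FPKM. In addition 4 transcripts inside introns of Slc8a1 and 7 inside introns of Casr were listed and are not part of the sums, among them MSTRG.16212.1 of Slc8a1 with 5.80, 5.10 and 4.13 FPKM. The level of Slc8a1 therefore includes long transcripts that span intronic sequence. Besides MSTRG.16210.11, MSTRG.16210.4 and MSTRG.16210.5 fell from means of 2.52 and 1.5 FPKM at 12 months to 0.0511 and 0.0205 FPKM at 24 months. Each was listed at 0 in 2 mice of 12 months and 4 of 24 months. For MSTRG.16210.6 the difference between 24 and 12 months was -0.26 (limma adjusted p 0.838). MSTRG.16210.10 was lower at 24 months too, whereas MSTRG.16210.1, MSTRG.16210.2 and MSTRG.16210.3 were higher. Atp2b1 was led by MSTRG.4533.5 at a mean of 5.22 FPKM and ENSMUST00000219090 at 3.47 FPKM, with ENSMUST00000220358, annotated as a retained intron, at 1.0 FPKM. Atp2b4 was led by MSTRG.1858.3 at 1.53 FPKM. At 24 against 12 months ENSMUST00000220358 differed by 0.45 and ENSMUST00000125659 of Atp2b4 by 0.95, each with a limma adjusted p of 0.838.

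The circular RNAs gave a second readout of Slc8a1. They are given as CPM, counts per 1000000 circular RNA counts after TMM normalization, from estimated counts that summed to between 6974494 and 9889971 per mouse. The largest, circRNA7631, had 303, 98.4, 231, 124 and 346 CPM at 3 months, 182, 178, 162, 144 and 169 CPM at 12 months, and 113, 150, 129, 118 and 100 CPM at 24 months. The young mice were split, with mice 5, 7 and 9 above all older mice and mice 6 and 8 below every 12-month-old one, whereas 4 of the 5 old mice lay below every 12-month-old mouse. Between 24 and 12 months circRNA7631 differed by -0.46 (SE 0.10) with an unadjusted p of 0.000597, an edgeR adjusted p of 0.0585 and an exact permutation p of 0.0159. Between 24 and 3 months it differed by -0.85 (SE 0.29), with an unadjusted p of 0.0111 and an edgeR adjusted p of 0.0687. The exact permutation p of that difference was 0.127, and the groups overlapped.

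The second circle, circRNA2513, which lacks exon 9, ranked the mice of each age in the same order. All of its sequence is shared with circRNA7631, and whether the estimated counts hold back-splice reads alone is not given. The values and calls of these circles may therefore not be independent of each other. It had between 44.9 and 162 CPM at 3 months, between 63.3 and 86.7 at 12 months and between 44.4 and 69.2 at 24 months. It differed by -0.46 between 24 and 12 months (edgeR adjusted p 0.0826) and by -0.89 between 24 and 3 months (edgeR adjusted p 0.0606). The exact permutation p was 0.0159 and 0.103 in turn, and the groups overlapped in both comparisons. The single-exon circRNA1557 had 16.2, 5.88, 15.1, 5.83 and 15.9 CPM at 3 months, so that the same pair of young mice, 6 and 8, was low. At 12 months it ranged from 9.83 to 13.1 CPM and at 24 months from 6.61 to 11.8 CPM, a difference of -0.41 with an edgeR adjusted p of 0.176. Mice 6 and 8 were also those with the lowest Slc8a1 FPKM at 3 months. Mouse 9, however, had the highest circRNA7631, 346 CPM, with 15.8 FPKM of linear Slc8a1, below mice 5 and 7. At 12 against 3 months circRNA7631 differed by -0.4 (edgeR adjusted p 0.41) and circRNA2513 by -0.43 (edgeR adjusted p 0.379). The difference of circRNA1557 was 0.02, and that of linear Slc8a1 went the other way, at 0.26 (limma adjusted p 0.658).

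**Figure D4:**
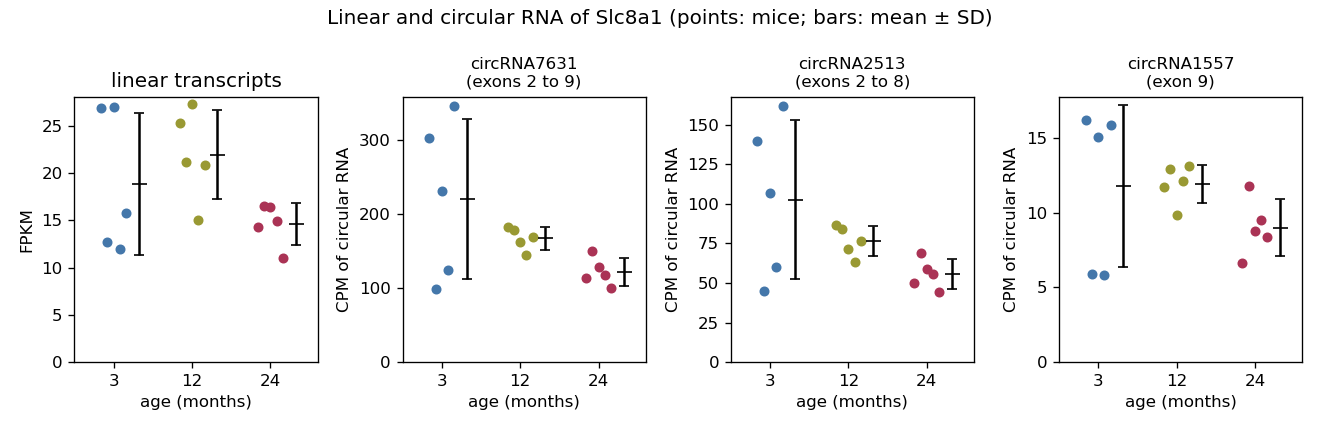
Summed FPKM of the linear transcripts of Slc8a1 (left) and CPM of its 3 circular RNAs (other panels) in each mouse at 3, 12 and 24 months of age, with the mean ± SD of 5 mice, on linear axes from 0. The 24-month-old mice lie between 100 and 150 CPM for circRNA7631, and the 3-month-old mice spread from 98.4 to 346 CPM.

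With edgeR, none of the 11 circular RNAs was called in any comparison. At 24 against 3 months 13.3% of all circular RNAs tested were called, at 12 against 3 months 6.63% and at 24 against 12 months 0.738%. At an unadjusted p under 0.05 there were 2, 0 and 4 of the 11, beside 28.8%, 23.7% and 16.9% of all. DESeq2 on the same counts called 2 of the 11 at 24 against 12 months, circRNA7631 (adjusted p 0.00348) and circRNA2513 (adjusted p 0.0127), where it called 3.51% of all, and none in the other comparisons. In edgeR both circles also passed at 24 against 3 months when mouse 6 or mouse 8, the low young mice, was left out, and at 24 against 12 months circRNA7631 passed without mouse 21 or mouse 32 and circRNA2513 without mouse 32. Without mouse 6 the differences were -1.04 for circRNA7631 and -1.07 for circRNA2513, with adjusted p-values of 0.0149 and 0.0126.

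The circles of the other members overlapped between the ages. Atp2b1 circRNA7607 ranged from 167 to 195 CPM at 3 months, from 152 to 187 at 12 months and from 157 to 205 at 24 months, with overlap of all ages. Pth1r circRNA5658 ranged from 126 to 194, from 131 to 191 and from 125 to 187 CPM. Casr circRNA5865 had 65.1 ± 15.6, 75.8 ± 10.4 and 64.5 ± 9.98 CPM (SD, n = 5 each), with its highest mean at 12 months as in the linear RNA of Casr. The mice low in linear Casr were not low in this circle. Mouse 9, at 5.82 FPKM, had 72.3 CPM, and mouse 35, at 6.31 FPKM, had 64.6 CPM. The smaller circles were Casr circRNA5864 and circRNA4998, Atp2b1 circRNA8885 and circRNA3984 and Atp2b4 circRNA1132, with means between 8.57 and 43.9 CPM. Of these, circRNA5864 differed by -0.28 between 24 and 12 months with an unadjusted p of 0.0318 and an edgeR adjusted p of 0.247.

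The rest of the pathway was taken from lists of related genes, and limma called no gene of them in any comparison. Counts at an unadjusted p under 0.05, here and in the lists that follow, stand beside the shares of all genes. These shares were 14.9% at 24 against 3 months, 14.3% at 12 against 3 months and 6.43% at 24 against 12 months. Of the partners and regulators of TRPV5, 13 were tested, and 1 at 24 against 3 months, 3 at 12 against 3 months and 2 at 24 against 12 months had an unadjusted p under 0.05. These were Bspry in all 3 comparisons, the kinase gene Sgk1 in those with 12 months and Slc9a3r1 at 12 against 3 months. Bspry, whose product binds TRPV5, had 13.2 ± 3.77, 8.55 ± 0.947 and 7.14 ± 0.867 FPKM at 3, 12 and 24 months (SD, n = 5 each). It differed by -0.77 between 24 and 3 months without overlap (SE 0.16, limma adjusted p 0.0599, exact permutation p 0.00794) and by -0.54 between 12 and 3 months (limma adjusted p 0.181). Its means stood in the same order of ages as those of Trpv5, but so did those of the proximal tubule marker Slc5a2 and the intercalated cell marker Slc26a4. The later step of Bspry, -0.23, had a limma adjusted p of 0.747. Sgk1 differed by -1.16 between 12 and 3 months and by 0.89 between 24 and 12 months (limma adjusted p 0.139 and 0.745). The kidney kallikrein Klk1 had 1240 ± 267 and 879 ± 58.8 FPKM at 3 and 24 months (limma adjusted p 0.422), and the scaffold gene Slc9a3r1 31.2 ± 5.54 and 38.4 ± 6.50 FPKM (limma adjusted p 0.384). At 12 months Slc9a3r1 was highest, at 49.1 ± 12.9 FPKM. It differed by 0.63 from 3 months without overlap (limma adjusted p 0.157, exact permutation p 0.00794).

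Among 11 genes of vitamin D, parathyroid hormone and klotho signalling, 2 had an unadjusted p under 0.05 in each comparison, namely Gnaq and Pth2r at 24 against 3 months, Cyp24a1 and Gnaq at 12 against 3 months, and Pth2r and klotho (Kl) at 24 against 12 months. The G protein subunit gene Gnaq had 16.5 ± 0.737 FPKM at 3 months and 14.8 ± 0.794 FPKM at 24 months, a difference of -0.15 without overlap (limma adjusted p 0.246). Pth2r, at most 0.107 FPKM in any mouse, differed by 0.08 (limma adjusted p 0.189). Cyp24a1, which breaks down active vitamin D, had 28.8 ± 22.2 FPKM at 3 months, 50.7 ± 14.2 at 12 months and 56.8 ± 29.7 at 24 months, with a difference of 1.02 between 24 and 3 months (limma adjusted p 0.414). The median of the list was -0.08 at 24 against 3 months.

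Other genes of the same protein families were compared next. Trpv6, the closest relative of Trpv5, had 0.493 ± 0.183, 0.510 ± 0.194 and 0.317 ± 0.0463 FPKM at the 3 ages, with a difference of -0.17 between 24 and 3 months (limma adjusted p 0.391). Slc8a3 was at most 0.104 FPKM and Atp2b3 had a mean of 0.00835 FPKM at 24 months. Of the 8 such genes tested, none had an unadjusted p under 0.05 at 24 or at 12 against 3 months, and 1, Trpv6, did at 24 against 12 months. Of 9 genes of paracellular calcium and magnesium transport, such as Cldn16 with 5.03 ± 2.41 and 3.33 ± 0.769 FPKM at 3 and 24 months (limma adjusted p 0.506), 0, 2 and 2 had an unadjusted p under 0.05 at 24 against 3, 12 against 3 and 24 against 12 months. These were Cldn14 and Cldn16, and then Cldn14 and the magnesium channel gene Trpm6, which is also among the distal convoluted tubule markers and differed by -0.30 between 24 and 12 months without overlap (limma adjusted p 0.581). Cldn14 and Trpm7 of this list differed by -0.06 and 0.13 between 24 and 3 months.

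Whether the members vary together between mice was examined over the 28 pairs. The highest Pearson correlation was that of S100g with Slc8a1, at r = 0.66 (permutation p = 0.00806, adjusted over the 28 pairs 0.226) and Spearman's rho of 0.65 (permutation p = 0.0100, adjusted 0.122). With each age centred on its mean r was 0.61 (permutation p = 0.0983, adjusted 0.616). Without the 2 mice farthest from the median of S100g it was 0.54 (permutation p = 0.0571, adjusted 0.4). Calb1 with Slc8a1 had r = 0.53 (permutation p = 0.0379, adjusted 0.309) and rho = 0.52 (permutation p = 0.0496, adjusted 0.277). Its r with each age centred was 0.63 (permutation p = 0.0137, adjusted 0.383), the highest centred value of the 28 pairs, and the pooled r was 0.24 without the 2 farthest mice, so that the pooled value rested on them. Casr with Pth1r had r = 0.53 (permutation p = 0.0423, adjusted 0.309) and rho = 0.66 (permutation p = 0.00956, adjusted 0.122). Its r was 0.44 with each age centred (permutation p = 0.185, adjusted 0.616) and 0.61 without the 2 farthest mice (permutation p = 0.0265, adjusted 0.247). No pair passed after adjustment for the 28 pairs. Trpv5 had pooled correlations between -0.34 and 0.20 with the other members, of which 0.20 was that with S100g. With each age centred its r with S100g was 0.31 (permutation p = 0.179, adjusted 0.616). It was 0.73 without the 2 mice farthest from the median of S100g (permutation p = 0.00349, adjusted 0.0977). These were mice 6 and 8, the lowest in S100g, so that the value of 0.73 rested on leaving them out.

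**Figure D5:**
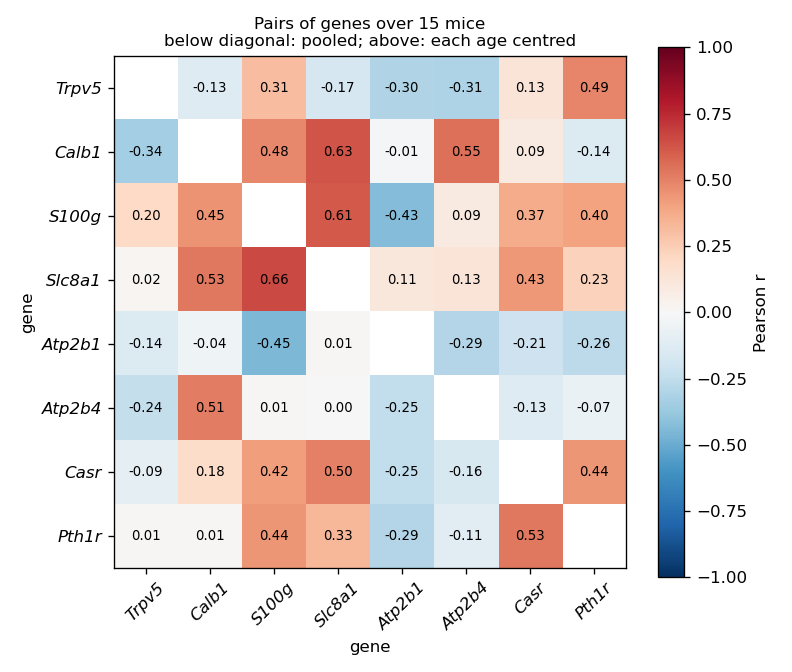
Pearson correlation of log2(FPKM + 1) between each pair of the 8 genes over 15 mice, below the diagonal pooled over ages and above it with each age centred on its mean. S100g with Slc8a1 has the highest pooled value, 0.66, S100g with Atp2b1 the lowest, -0.45, and no pair passed the adjusted permutation test.

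For each member the genes most like it were sought by Pearson correlation over the 15 mice among 13446 genes with a mean of at least 1 FPKM. Nearest to Trpv5 were Ywhaq-ps1 (r = 0.91), 3110062M04Rik (r = 0.87) and Atp2a2 (r = 0.86), and Atp2a2, the calcium pump of the endoplasmic reticulum, dropped to 0.18 with each age centred, while the first pair kept 0.91 and 0.79. Nearest to S100g were Ggt1 (0.91), Gm853 (0.86) and Tmem214 (0.86), and nearest to Slc8a1 Pgm3 (0.83), Ttc36 (0.82) and Il34 (0.82). For Calb1 they were Nrros, Mrfap1 and Cfb (0.84, 0.83 and 0.81), for Casr Acox3, Tmem88b and Jade3 (0.85, 0.84 and 0.84), and for Pth1r Coasy, Cideb and Atxn7l1os2 (0.84, 0.81 and 0.81). The pumps had the lowest nearest values, with Krt19, Tgs1 and Mcam at 0.79, 0.79 and 0.77 for Atp2b1 and Tnfrsf22 at 0.80 for Atp2b4. These are the highest of the correlations with 13446 genes, in libraries that share depth and age, and they are given as a description.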

How the data were processed

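Reads were trimmed by the authors (Cutadapt 1.9). HISAT2 and Bowtie2 served for mapping to GRCm38, annotated by Ensembl release 88, although TopHat2 is the mapper in the submitters' processing notes. StringTie assembled and quantified the transcripts. The deposited values are FPKM and mean read coverage per transcript. For circular RNAs the authors deposited estimated counts and FPKM (the latter not used). Their caller is not given in the sources used here, nor whether these counts hold back-splice reads alone.

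FPKM were summed per gene over class codes =, c, j and o. These are not counts, so the study's DESeq2 was not applied to them. Genes and transcripts listed above 0 in any mouse of a comparison were tested with limma 3.58.1 (trend, pseudocount 1) in R 4.3.3, and circular RNAs above 0 in at least 5 mice, rounded, with edgeR 4.0.16 (quasi-likelihood, TMM), with DESeq2 1.42.0 as alternative. Limma and edgeR were tested on simulated data for 24 against 3 months. Of 200 genes changed by 1 log2 unit, limma called 129 (64.5%), with 11 others. Of 200 circular RNAs changed by 1.5 log2 units, edgeR called 195 (97.5%), with 1 other. Smaller changes were not simulated. Intervals are 95% limma intervals. Exact permutation tests were 2-sided over all 252 assignments, with 0.00794 as the smallest p, and correlations used 100000 permutations. The ratio of coverage to FPKM gave the aligned bases, and the ends of all 31 annotated member transcripts were the same in GENCODE M21, from which exon numbers were taken. Python 3.11.15, pandas 2.3.3, scipy 1.17.1 and matplotlib 3.10.9 were used for the rest.

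The members, the gene lists and the rules were chosen with earlier results of these data known. Named were all members, their transcripts with a mean of at least 1 FPKM, their circular RNAs, the 3 genes of each pathway list with the smallest p at 24 against 3 months, and the 3 genes most like each member (for Atp2b4 only the first is reported here). Any other gene or transcript was picked because of its value. That samples are separate mice rests, for 12 months, on the numbers in their titles alone. Alternatives were another pseudocount, filter, scaling, class codes, variance prior and fit over all mice, and each mouse left out.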

Additional observations from a re-analysis of the deposited data

Results flagged for a closer look

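Of 57 groups of 5 mice examined over the 8 genes and the 11 circular RNAs, 2 held a mouse that stood apart from the others, and chance gives about 1 in 20 groups. Atp2b1 circRNA3984 was highest in mouse 31 of the 24-month-old mice, at 10.4 CPM, while the other 4 had between 8.76 and 9.16 CPM. Pth1r circRNA5658 was highest in mouse 32 of the same age, at 187 CPM, beside 125 to 141 CPM in the other 4. Mouse 32 also had the highest linear Pth1r level of its age, 114 FPKM.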

How the results depend on the processing

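No paired analysis was possible because the ages share no mouse numbers and their labels carry no other link. The call of Trpv5 at 24 against 3 months held in 17 of 18 alternatives, with differences from -0.73 to -0.47 and limma adjusted p-values from 0.00956 to 0.598, and was lost with annotated transcripts only (-0.47). With annotated transcripts only, 0 members were called at 24 against 3 months, and 0 had an unadjusted p under 0.05 there or at 12 against 3 months. Small differences took the other sign, namely Atp2b1 at 24 against 3 months (-0.0015) and at 24 against 12 months (-0.001), Atp2b4 at 12 against 3 months (0.07) and Casr at 24 against 12 months (0.22). This setting gives no value for Slc8a1, which has no annotated transcript in the files. With all transcripts of a gene name, introns included, 0 members had an unadjusted p under 0.05 at 24 against 12 months. Median-of-ratios scaling gave -0.09 for Atp2b1, -0.0023 for Atp2b4, -0.07 for Casr and -0.05 for Pth1r at 24 against 3 months. DESeq2 called 2 circular RNAs at 24 against 12 months, where edgeR called 0. The causes were not tested.

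With each mouse left out in turn, the number of members with an unadjusted p under 0.05 went from 1 to 2 at 12 against 3 months and from 1 to 3 at 24 against 12 months. For their transcripts it went from 0 to 2 at 24 against 3 months, from 0 to 4 at 12 against 3 months and from 3 to 7 at 24 against 12 months. For their circular RNAs it went from 0 to 3 at 12 against 3 months and from 3 to 7 at 24 against 12 months, and 0 to 2 were called by edgeR at 24 against 3 and at 24 against 12 months. At 24 against 3 months the differences that changed sign ranged from -0.1 to 0.12 for Atp2b1, -0.01 to 0.23 for Atp2b4, -0.17 to 0.24 for Casr, -0.04 to 0.15 for Pth1r and -0.39 to 0.03 for S100g, and among circular RNAs from -0.24 to 0.12 for circRNA1132, -0.02 to 0.21 for circRNA3984, -0.05 to 0.17 for circRNA4998, -0.17 to 0.04 for circRNA5864, -0.1 to 0.12 for circRNA5865, -0.06 to 0.03 for circRNA7607 and -0.11 to 0.14 for circRNA8885. At 12 against 3 months they ranged from -0.18 to 0.05 for Atp2b1, -0.13 to 0.05 for Atp2b4, -0.01 to 0.4 for S100g, -0.05 to 0.31 for circRNA1132, -0.16 to 0.16 for circRNA1557 and -0.14 to 0.09 for circRNA3984, and at 24 against 12 months from -0.36 to 0.11 for Calb1. Without changing sign, Calb1 ranged from 0.07 to 0.71 at 24 against 3 months and from 0.21 to 0.82 at 12 against 3 months.

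The p-values measure the spread between 5 mice per age. FPKM hold no read counts, so counting error cannot be separated from differences between mice, and the lower coverage of Trpv5 and Atp2b4 makes the division of their reads among transcripts less sure.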
